A study of Mus musculus with 6 samples.

Results

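The 10 genes described here encode the replication-independent histone variants of the mouse: H2afz and H2afv (both H2A.Z), H2afx (H2A.X), H2afy and H2afy2 (macroH2A1 and macroH2A2), H3f3a and H3f3b (both H3.3), H1f0 (H1.0), H1fx (H1X) and Cenpa (CENP-A). They were listed by name, and all 10 were found among 55450 annotated genes. Nuclear RNA was profiled by cap analysis of gene expression (CAGE), which captures capped RNAs and sequences a short tag from each 5′ end. The level of a gene is the number of tags within 500 bp of any of its annotated 5′ ends on its strand, scaled to 1000000 tags of the library (TPM). A capped RNA gives 1 tag whatever its length, so gene length does not enter these levels, but they can still be too low or too high where the start of a gene has a copy elsewhere in the genome. The comparisons concern the level of each gene in either cell type, the promoters used and the exact start positions.

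The mESC group holds 3 libraries of R08, a mouse embryonic stem cell line kept without feeders in serum and leukemia inhibitory factor. The mOPC group holds 3 libraries of oli-neu, a neural line derived from mouse oligodendrocyte precursor cells and expanded with thyroid hormones, FGF and PDGF. No treatment or genotype beyond the lines themselves is given, and each cell type is represented by 1 line. Libraries held 16657021 to 37888141 tags in mESCs and 21925299 to 40928704 tags in mOPCs. The 3 libraries of a cell type carry 1 shared name in the files, different for the other cell type, so preparation and cell type cannot be told apart. The labels only number the replicates. The methods use the term biological replicate for cell batches of different passage, without saying so of the CAGE libraries in particular, and p-values measure the spread between these libraries. All 8 mESC marker genes tested were lower in mOPCs, with Pou5f1, Nanog, Zfp42, Dppa5a and Tdgf1 at 0 tags there, and their summed level was 3841 to 4182 against 41.2 to 46.0 TPM. Of 8 mOPC markers, 7 could be tested and all 7 were higher in mOPCs, with a sum of 2413 to 2558 against 8.82 to 10.1 TPM, and Nkx2-2 had no tag in any mOPC library. Markers of differentiated oligodendrocytes summed to 13.3 to 14.0 TPM in mESCs and 248 to 283 in mOPCs, with 4 of 5 higher in mOPCs and Mobp lower (10.997 and 0.173). Neuron markers summed to 10.99 to 12.7 and 101 to 121, with Syt1 (3.45 and 88.3) and Gad1 (3.62 and 20.8) higher in mOPCs and Snap25 and Rbfox3 lower, at 0 there. Astrocyte markers summed to 18.5 to 20.8 TPM in mESCs and 42.6 to 48.2 in mOPCs, mostly from Aldoc (19.3 and 44.6). Gfap was at 0.516 and 0.992, and Aqp4 had too few tags to be tested. Fibroblast markers summed to 2.16 to 2.22 and 9.67 to 12.3, nearly all from Col1a1 (2.20 and 11.1). Col3a1, Dcn and Lum had too few tags to be tested. Extraembryonic endoderm markers summed to 29.6 to 35.7 and at most 0.035. The part of such cells in the results was not tested. The position with the most tags held 0.508 to 0.667% of each mESC library and 5.38 to 5.92% of each mOPC library.

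As background, canonical histones are made in S phase from clustered genes and are deposited behind the replication fork. Many variants are also made outside S phase and can replace canonical histones in nucleosomes without replication, though timing differs between them. H2A.Z marks promoters and enhancers and is placed there by the SRCAP and p400 complexes. H2A.X is phosphorylated at DNA breaks. MacroH2A carries a large extra domain and is abundant on the inactive X chromosome. H3.3 is placed at active genes by HIRA and at repeats by ATRX and DAXX, and H3f3a and H3f3b encode the same protein. CENP-A replaces H3 at centromeres. H1.0 is a linker histone that accumulates in slowly dividing and differentiated cells.

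Of the 10 genes, 9 differed between the cell types by edgeR's quasi-likelihood test with Benjamini-Hochberg adjustment over 18379 genes. H2afz, H2afv, H2afx, H2afy2 and H3f3a were lower in mOPCs, and H2afy, H3f3b, H1f0 and Cenpa were higher, while H1fx did not pass the threshold. Over all genes tested, 91.1% were called, with 48.8% higher in mESCs and 42.3% higher in mOPCs, so that 9 of 10 is close to the background. The median log2 fold change of mOPC over mESC was −0.54 for the 10 genes and −0.18 for all genes. In bulk libraries, fewer cells of a kind and less RNA per cell cannot be told apart. The sum over the 10 genes was 1787 ± 140 TPM in mESCs and 743 ± 29.8 in mOPCs (SD, n = 3). H2afx, H2afv and H2afz together summed to 1265.5 ± 114 and 139 ± 5.95 TPM.

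**Figure D1:**
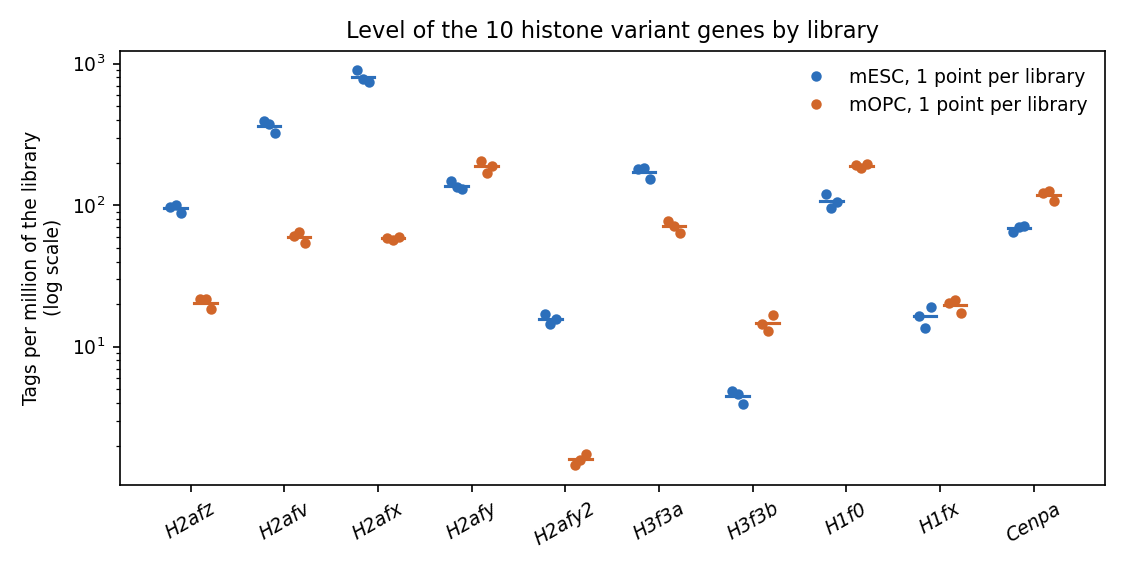
Level of each gene in TPM, on a log axis, with 1 point per library and a line at the mean of the 3 libraries of a cell type. The points of the cell types are separate for every gene but H1fx. The widest gap on this scale is that of H2afx, from 806 to 58.3. Of all genes tested 91.1% were called by edgeR, and how many have separate points was not counted.

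The order of the levels was different in the cell types. In mESCs, H2afx stood first with 806 ± 79.6 TPM, followed by H2afv, H3f3a, H2afy, H1f0, H2afz, Cenpa, H1fx, H2afy2 and H3f3b. The libraries of H1f0 and H2afz overlapped in this order, as did those of H1fx and H2afy2. In mOPCs, H1f0 (191 ± 7.80) and H2afy (189 ± 18.4) stood first with overlapping libraries, followed by Cenpa, H3f3a, H2afv, H2afx, H2afz, H1fx, H3f3b and H2afy2. The place of H3f3b is uncertain in both orders, since tags at a copy of its start on another chromosome are not counted here. These tags were at 6.30 to 7.52 TPM in mESCs and 12.95 to 17.1 in mOPCs, and their locus of origin was not tested. In mOPCs, the ranges of H3f3a and H2afv overlapped, as did those of H2afv and H2afx and those of H2afz and H1fx. H2afx took 45.1 ± 1.16% of the tags of the 10 genes in mESCs and 7.85 ± 0.33% in mOPCs.

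H2afx (ENSMUSG00000049932.3, mm10 chr9:44334694-44336077, plus strand) has 1 annotated transcript and lacks introns, and its product is the H2A.X of the DNA damage response. It was measured at 896, 777 and 745 TPM in mESCs, against 58.6, 56.8 and 59.4 in mOPCs. Every mESC library was far above every mOPC library. The log2 fold change of mOPC over mESC was −3.82 (SE 0.10, adjusted p = 9.13e-40 by edgeR), which is 14.1-fold lower. Of all genes tested, 25.7% changed by as much or more in either direction.

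H2afv (ENSMUSG00000041126.16, chr11:6427229-6444443, minus strand) and H2afz (ENSMUSG00000037894.13, chr3:137864487-137866922, plus strand) encode near-identical H2A.Z proteins. H2afv was at 393, 374 and 325 TPM in mESCs, against 60.8, 64.5 and 54.0 in mOPCs. H2afz was at 96.4, 100.4 and 88.6 TPM in mESCs, against 21.6, 21.6 and 18.4 in mOPCs. Both genes were far lower in each mOPC library than in any mESC library. The log2 fold change was −2.64 (SE 0.09) for H2afv, 6.23-fold lower with adjusted p = 2.03e-32. It was −2.25 (SE 0.09) for H2afz, 4.75-fold lower with adjusted p = 9.70e-30 by edgeR. H2afz gave the smaller part of the H2A.Z tags in both cell types, with 19.7, 21.2 and 21.4% in mESCs and 26.2, 25.1 and 25.4% in mOPCs. The share was 4.79 percentage points higher in mOPCs and its libraries did not overlap (two-sided exact permutation p = 0.1). That is the smallest p that 3 against 3 libraries can give. Positions whose first 21 bases also occur in other annotated transcripts held 989, 590 and 518 of 3654, 1673 and 1633 H2afz tags in mESCs. In mOPCs these were 27, 23 and 22 of 473, 622 and 752. For H2afv they held 4598, 2017 and 1905 of 14876, 6234 and 5998 tags in mESCs. The mOPC libraries had 398, 519 and 618 of 1333, 1860 and 2210 there. The part of these tags in the fold changes and the share was not tested.

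The macroH2A genes went in opposite directions. H2afy (ENSMUSG00000015937.15, chr13:56073619-56136361, minus strand) was at 148, 134 and 130 TPM in mESCs, against 206, 170 and 190 in mOPCs. All mOPC libraries lay above all mESC libraries, by a log2 fold change of 0.43 (SE 0.09, adjusted p = 1.06e-05 by edgeR), or 1.34-fold. H2afy2 (ENSMUSG00000020086.6, chr10:61738665-61784147, minus strand) was at 16.9, 14.4 and 15.8 TPM in mESCs, against 1.46, 1.60 and 1.76 in mOPCs. These mOPC values rest on 32, 46 and 72 tags. The log2 fold change of H2afy2 was −3.31 (SE 0.15, adjusted p = 9.65e-28 by edgeR), 9.89-fold lower. H2afy held 89.7 ± 0.59% of the tags of both genes in mESCs and 99.1 ± 0.13% in mOPCs (two-sided exact permutation p = 0.1, n = 3). CAGE tags do not reach the alternative exon by which macroH2A1 transcripts differ, and splice forms were not resolved.

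The H3.3 genes also went in opposite directions. H3f3a (ENSMUSG00000060743.12, chr1:180800832-180813943, minus strand) was at 180, 182 and 153 TPM in mESCs, against 77.7, 71.6 and 63.5 in mOPCs. The groups did not overlap, and the log2 fold change was −1.31 (SE 0.09, adjusted p = 1.53e-19 by edgeR), 2.47-fold lower. H3f3b (ENSMUSG00000016559.14, chr11:116021912-116027962, minus strand) was at 4.83, 4.62 and 3.96 TPM in mESCs, against 14.5, 12.8 and 16.9 in mOPCs. It was thus higher in each mOPC library, by a log2 fold change of 1.68 (SE 0.14, adjusted p = 6.70e-17 by edgeR) or 3.20-fold. H3f3a held 97.5 ± 0.07% of the tags of both genes in mESCs and 84.3, 84.8 and 79.0% in the mOPC libraries (two-sided exact permutation p = 0.1). The copy of the H3f3b start bears on both values.

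**Figure D2:**
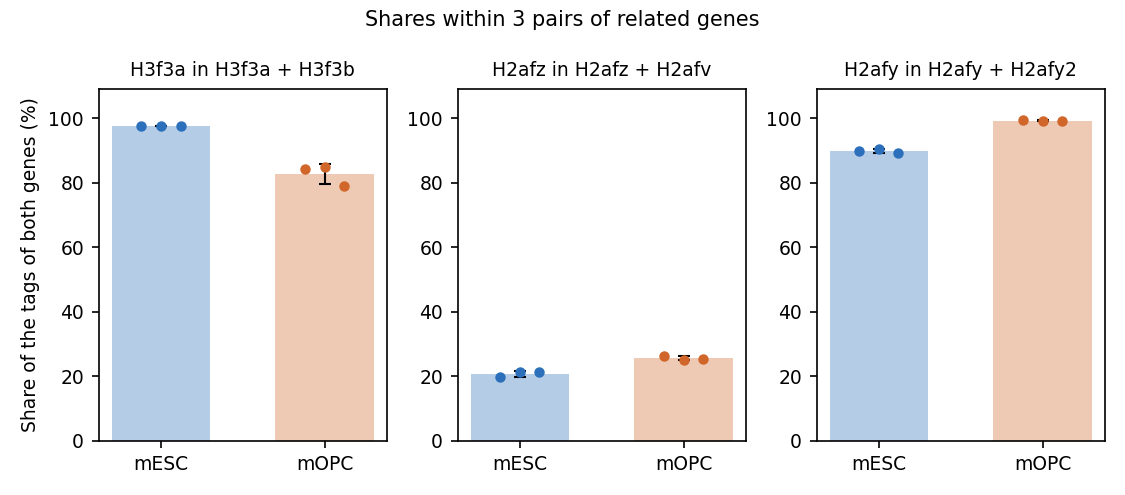
Share in percent of the first gene of a pair in the tags of both genes, for H3f3a with H3f3b, H2afz with H2afv and H2afy with H2afy2. Bars show the mean of 3 libraries, error bars the SD and points the libraries, and the cell types do not overlap in any of the 3 pairs, with H3f3a falling from 97.5% to 82.7%.

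The following runs show the H3f3b start and its copy in Gm43584, a processed transcript annotated on another chromosome. They are the reason why the counts of H3f3b need care. The capital marks the position that carries the tags, and everything after it is the same in both runs (mm10, both on the minus strand, chr11:116024484-116024513 and chr3:104753281-104753310, bases from the GENCODE M21 transcripts).
H3f3b: ggggggctTggagcgcagagcggtttggtc
Gm43584: aaaaatttGggagcgcagagcggtttggtc

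From the base after the capital, the match runs on for 53 bases, more than the length of a CAGE tag. The first 12 positions of that match held no tag in any of the 6 libraries at H3f3b. At the capital and the 2 bases before it, H3f3b had 93, 31 and 43 tags in mESCs and 99, 125 and 239 in mOPCs. The same 3 positions of Gm43584 had 285, 105 and 129 tags in mESCs and 284, 430 and 699 in mOPCs. At these 3 positions the copy thus held more tags than H3f3b in every library. In TPM the copy was higher in each mOPC library than in any mESC library as well. With these tags added to H3f3b, its log2 fold change was 1.34 (adjusted p = 5.35e-17 by edgeR) and the share of H3f3a was 93.7% in mESCs and 70.4% in mOPCs, an alternative chosen after the data were seen. Which of the loci these tags came from was not tested.

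**Figure D3:**
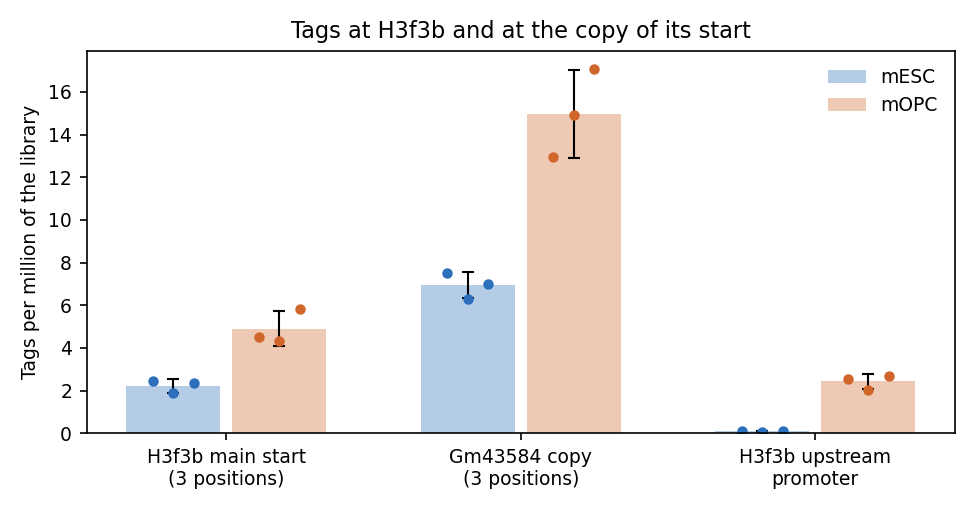
TPM at 3 positions of the H3f3b main start, at the same 3 positions of its copy in Gm43584 and in the window of the upstream H3f3b promoter. Bars show means of 3 libraries, error bars the SD and points the libraries, and mOPCs are higher at each place, with 12.95 to 17.1 against 6.30 to 7.52 at the copy.

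The linker histone genes differed little or rose. H1f0 (ENSMUSG00000096210.2, chr15:79028450-79030504, plus strand) was at 120, 95.6 and 106 TPM in mESCs, against 193, 182 and 197 in mOPCs. All mOPC libraries were above all mESC libraries, with a log2 fold change of 0.80 (SE 0.09, adjusted p = 2.56e-12 by edgeR), or 1.74-fold. H1fx (ENSMUSG00000044927.6, chr6:87980421-87981637, minus strand) was at 16.5, 13.6 and 19.0 TPM in mESCs, against 20.4, 21.2 and 17.3 in mOPCs. The groups overlapped, and the log2 fold change of 0.22 (SE 0.11) did not pass the threshold (adjusted p = 0.0576 by edgeR), with a 95% interval from −0.003 to 0.44. Without mESC replicate 2 it was 0.10 (adjusted p = 0.431 by edgeR). With only tags inside the annotated gene (7.72% of window tags in mESCs, 6.17% in mOPCs), it was −0.20 (adjusted p = 0.454 by edgeR). It passed with the replicate number as a block (0.23, adjusted p = 0.0360), without mESC replicate 3 (0.30, adjusted p = 0.0172 by edgeR), without mOPC replicate 3 (0.31, adjusted p = 0.0153), and when scaled to the library total (0.25, adjusted p = 0.0358). A miRNA annotation on the same strand, Gm47286, shares 99.6% of the tags of H1fx, and the tags cannot be split between them.

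Cenpa (ENSMUSG00000029177.9, chr5:30666777-30674830, plus strand), the H3 variant of the centromere, was at 64.9, 69.8 and 71.7 TPM in mESCs, against 123, 125 and 107 in mOPCs. The mOPC libraries all lay higher, by a log2 fold change of 0.76 (SE 0.08, adjusted p = 4.73e-12 by edgeR), or 1.69-fold. All 8 proliferation genes of the list used here were lower in mOPCs (median log2 fold change −2.66), as were 48.8% of all genes tested. The summed level of the 8 genes was 1647 to 1675 against 270.2 to 275.6 TPM. The part of cell division in the levels of any variant was not tested.

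**Figure D4:**
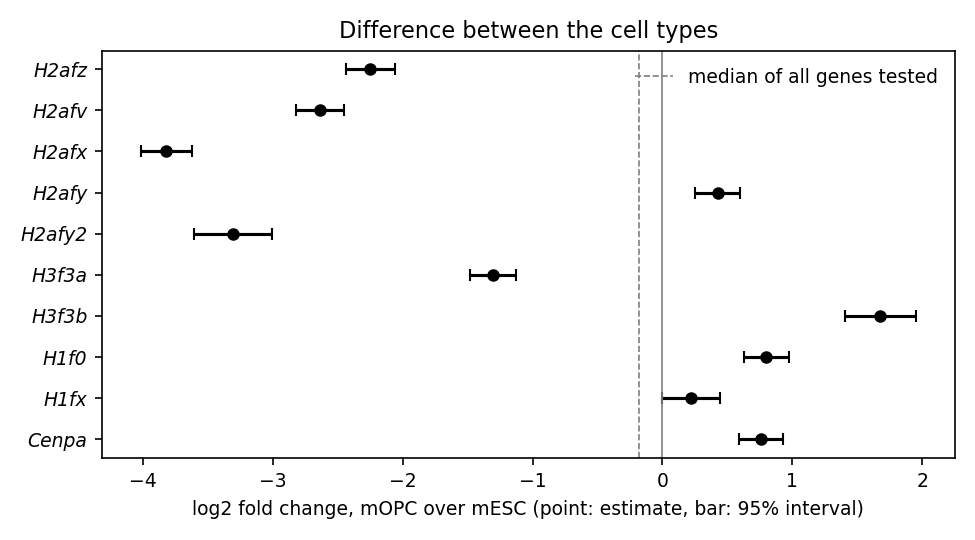
Log2 fold change of mOPC over mESC for each gene, with points for the edgeR estimate and bars for its 95% interval, a solid line at 0 and a dashed line at the median of all genes tested (−0.18). The intervals of 5 genes lie below 0, from H2afx at −3.82 to H3f3a at −1.31, 4 lie above it, and that of H1fx spans it.

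The replication-dependent histone genes, as symbols starting Hist1h, Hist2h, Hist3h or Hist4, were set beside the variants. Of 70 such genes, 59 could be tested. Among them 52 were lower in mOPCs, 5 were higher and 2 did not pass, against 48.8% lower and 42.3% higher of all genes tested. The median log2 fold change of the replication-dependent genes was −3.57. Many are near-identical copies, between which short tags cannot always be told apart. Their sum was 19724, 15825 and 15703 TPM in mESCs and 1730, 2031 and 1762 in mOPCs. For each tag of the 10 variant genes there were 9.54 ± 0.62 tags of replication-dependent genes in mESCs and 2.48 ± 0.29 in mOPCs (two-sided exact permutation p = 0.1, n = 3). Among further variant genes, H2afj fell from 161 to 36.3 TPM (log2 fold change −2.18, SE 0.09, adjusted p = 2.60e-29 by edgeR). The other 6, which include the germline genes H1foo, H1fnt, Hils1 and the H2afb genes, did not reach the filter on low counts.

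The genes that place the variants in chromatin were measured in the same fit. Over all genes tested, 91.1% were called, 42.3% higher and 48.8% lower in mOPCs, which is the background for the lists below. All 9 genes of H3.3 deposition passed the threshold, 3 higher and 6 lower in mOPCs, which is close to that background. The largest rise was that of Hira, the histone chaperone for active genes, from 47.3 to 94.3 TPM (log2 fold change 0.96, SE 0.09). The largest fall was that of Asf1b, a chaperone of dividing cells, from 44.4 to 4.62 (−3.29, SE 0.11). The median log2 fold change of this list was −0.62. Of 10 genes of H2A.Z exchange, 4 were higher and 6 lower with a median of −0.38, and these counts are also close to the background. Kat5, the acetyltransferase of the p400 complex, rose most (27.5 to 46.3, log2 fold change 0.71, SE 0.09), and the ATPase gene Ruvbl2 fell most (104.5 to 19.9, −2.42, SE 0.09).

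Of 9 genes of CENP-A deposition, none was called higher in mOPCs, 8 were lower and 1 did not pass, with a median log2 fold change of −1.72. The exception was Hjurp, the chaperone that carries CENP-A, at 102 ± 8.04 TPM in mESCs and 114 ± 3.56 in mOPCs (log2 fold change 0.13, SE 0.08, adjusted p = 0.123 by edgeR). In the list of H2A.X response, 7 genes were tested, 2 were higher, 3 lower and 2 did not pass, with a median of −0.15. The ubiquitin ligase gene Rnf8 rose from 24.1 to 51.9 (1.07, SE 0.09), and Supt16, a subunit of the FACT chaperone, fell from 314 to 73.6 (−2.12, SE 0.09). All 7 genes of general nucleosome assembly were lower in mOPCs, with a median of −1.57, and Nap1l1 fell most, from 374 to 48.6 (−2.97, SE 0.09).

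Promoters were compared next. Annotated 5′ ends whose windows overlap were joined, which left 1 promoter for 7 of the genes, 2 for H3f3b and Cenpa, and 3 for H2afy. The share of each promoter in the tags of its gene was tested with diffSpliceDGE of edgeR, which called 48.9% of 8382 promoters. Of the 6 promoters of H3f3b, H2afy and Cenpa that could be tested, 1 was called. It was the upstream promoter of H3f3b at chr11:116027462-116028462, which held 4, 1 and 2 tags in mESCs and 56, 59 and 110 in mOPCs. Its share of the tags of H3f3b was 2.19, 1.30 and 2.74% in mESCs and 17.6, 15.9 and 15.9% in mOPCs, and was higher in every mOPC library. Relative to the gene, its log2 fold change was 2.00 (adjusted p = 2.95e-09 by edgeR), and with windows of 100 bp it was 5.29 (adjusted p = 2.52e-14). The share counts only tags assigned to H3f3b, and tags at Gm43584 are not part of it.

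In H2afy, the first promoter held 99.5 to 99.8% of the tags in every library, and the second had 3 to 11 tags in mESCs and 14 to 27 in mOPCs (adjusted p = 0.078 by edgeR). In Cenpa, the first promoter held 99.2 to 99.8%, and the second had 3 to 8 tags in mESCs and 11 to 33 in mOPCs (adjusted p = 0.095 by edgeR). Neither difference in share passed the threshold at these counts.

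Within the main promoter, the position with the most tags over all libraries is called the main start. At 5941 RefSeq promoter windows on the plus strand with at least 100 tags, the strongest position lay on C or T in 92.3%, and the next base in the direction of transcription was A or G in 95.3%. On the minus strand, the values were 92.0% and 95.7% over 5784 windows. Transcription by RNA polymerase II usually starts at a purine that follows a pyrimidine, and on this scale the deposited positions lie 1 base before that purine on both strands. Positions below are given as deposited. Among the variant genes, the main start lay on C or T in 8 of the 9 genes whose base is covered, and A or G followed it in all 10.

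The genes fell into sharp and broad starts by the width that holds the 10th to 90th percentile of tags. H1fx starts took 1 base in every library, with 84.0 to 88.1% of tags at the main start. Those of H1f0 took 2 to 6 bases, those of H2afx 5 and those of H3f3a 6 to 8. H2afv (39 to 41 bases), Cenpa (44 to 52) and H2afy (63 to 67) were broad and had nearly the same width in both cell types. The width of H2afz was 46, 43 and 45 bases in mESCs and 349, 501 and 533 in mOPCs. That of H2afy2 was 176 to 260 bases in mESCs and 105 to 143 in mOPCs, and that of H3f3b 118 to 357 and 486 to 489. The H3f3b width leaves out the tags at the copy of its start in Gm43584, and their part in it was not tested. For these 3 genes the libraries did not overlap (two-sided exact permutation p = 0.1, n = 3). Widths were measured for the variant genes only, so how often they separate over all promoters is not known. By the 25th to 75th percentile, the width of H2afz differed by 14.7 bases.

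**Figure D5:**
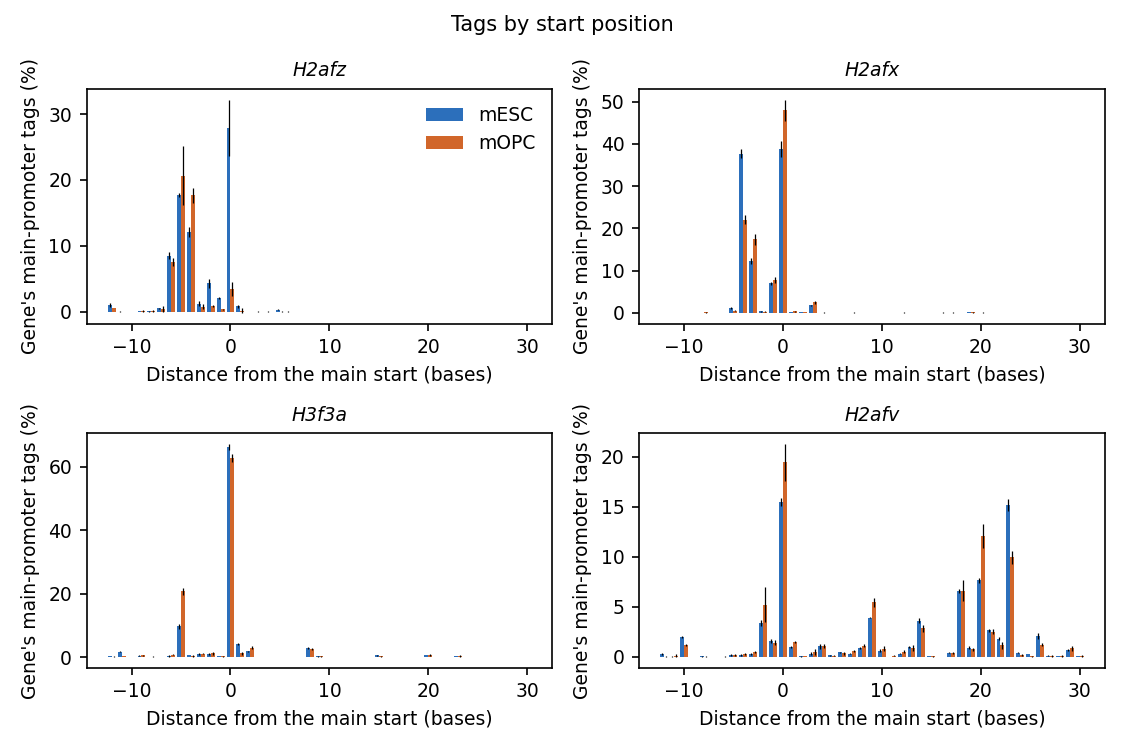
Percent of the tags of the main promoter at each position from 12 bases before to 30 after the main start, for H2afz, H2afx, H3f3a and H2afv. Bars show the mean of 3 mESC or 3 mOPC libraries and error bars the SD, and the main start of H2afz holds 27.9% in mESCs and 3.46% in mOPCs.

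Several genes used other positions of the same promoter in the cell types. The 4 positions with the most tags were compared in each gene, and no p can fall below 0.1 by the exact permutation test with 3 libraries against 3. In H2afz, the main start held 23.3, 31.9 and 28.5% of tags in mESCs and 4.65, 3.05 and 2.66% in mOPCs. The position 5 bases before it held 17.8 ± 0.32% and 20.7 ± 4.51%, with overlapping libraries, so the fall was much larger at the main start. In tags, the main start of H2afz had 853, 533 and 465 in mESCs and 22, 19 and 20 in mOPCs. The 36 bases from this position also occur on the other strand of the annotated transcript Gm26623, which the positions 5 and 4 bases before it do not share, and the part of alignment in this shift was not tested.

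In H2afx, a position 4 bases before the main start held 36.6, 38.3 and 38.3% of tags in mESCs and 21.9, 23.2 and 21.1% in mOPCs. The main start itself held 38.8 ± 1.98% and 48.0 ± 2.48%. In 2 of the mESC libraries the earlier position was the strongest, whereas the main start led in all mOPC libraries. In H3f3a, a position 5 bases before the main start held 9.66 ± 0.77% in mESCs and 20.8 ± 1.13% in mOPCs, with 66.2 ± 0.89% and 62.6 ± 1.21% at the main start. In H2afv, a position 23 bases after the main start held 15.2 ± 0.62% in mESCs and 9.97 ± 0.64% in mOPCs, whereas the position 20 bases after it held 7.66 ± 0.23% and 12.1 ± 1.18%. The first 21 bases from either position also occur in other annotated transcripts, which those from the main start do not, and the part of alignment in this shift was not tested either. In H2afy, a position 30 bases before the main start held 13.3 ± 0.81% and 7.94 ± 0.65%, and one 5 bases after it held 5.99 ± 0.98% and 10.6 ± 0.99%. The libraries of the cell types did not overlap at any of these positions except the one named for H2afz. They were also separate at each position compared in Cenpa, with 21.9 ± 0.80% and 16.8 ± 0.88% at the main start. In H2afy2, the position 7 bases before the main start held 7.97 ± 2.01% and 19.5 ± 2.49%, on 6, 8 and 16 tags in mOPCs. How often positions separate over all promoters was not counted. In H1f0 the position before the main start held 25.6 ± 3.38% and 23.1 ± 1.51%, and the libraries overlapped.

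Sequences before the main starts of some of the genes are given below. Motifs were not compared between sharp and broad promoters. The runs end at the main start, except that of H2afz, which ends 104 bases before it at the end of the upstream part of the RefSeq window. Capitals mark matches to the motifs searched on both strands, among them the TATA box with the letters TATAAA. The CCAAT box was searched as CCAAT and the GC box as GGGCGG. An E box was searched as CACGTG, the cell cycle homology element as TTTGAA and the E2F element of the form TTTNGCGC. The last motif searched was AAACACA. The bases are from RefSeq (GRCm38.p6), and the positions are chr11:116024505-116024595 (minus), chr6:87981638-87981728 (minus), chr1:180813558-180813670 (minus), chr3:137864428-137864486 (plus), chr11:6444415-6444555 (minus) and chr5:30666869-30666929 (plus) in the order of the runs.
H3f3b: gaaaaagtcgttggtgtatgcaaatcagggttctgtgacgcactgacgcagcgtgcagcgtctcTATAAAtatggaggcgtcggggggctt
H1fx: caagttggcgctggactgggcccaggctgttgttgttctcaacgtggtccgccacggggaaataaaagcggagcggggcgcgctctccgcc
H3f3a: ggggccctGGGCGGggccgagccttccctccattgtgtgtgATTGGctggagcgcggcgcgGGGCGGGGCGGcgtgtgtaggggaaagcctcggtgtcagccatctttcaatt
H2afz: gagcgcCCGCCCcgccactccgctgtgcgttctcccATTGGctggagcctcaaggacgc
H2afv: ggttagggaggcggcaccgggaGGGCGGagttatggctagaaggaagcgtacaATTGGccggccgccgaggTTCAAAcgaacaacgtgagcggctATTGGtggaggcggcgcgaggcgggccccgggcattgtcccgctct
Cenpa: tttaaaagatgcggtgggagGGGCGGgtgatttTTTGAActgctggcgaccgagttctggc

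RefSeq windows of 300 bases were given for 9 of the genes, all but H2afx, and those of H2afz, H2afy and H1f0 did not reach the main start. TATAAA occurred in 1 of the 9 windows, that of H3f3b, with its first base 26 bases before the main start, and in 13.6% of all 32851 windows. CCAAT or its complement ATTGG occurred in 6 of 9 windows (H2afz, H2afv, H2afy2, H3f3a, H3f3b and Cenpa) and in 37.4% of all windows. In H2afz its 3 matches began 183, 126 and 81 bases before the main start. The nearest began 45 bases before it in H2afv and 71 bases before it in H3f3a. The only match in H2afy2 began 101 bases after the main start. GGGCGG occurred in 7 of 9 and in 35.7% of all windows. TTTGAA occurred in 2 of 9 and in 17.9% of all windows. Its first base lay 27 bases before the main start of Cenpa, and the match in H2afv was on the other strand. The bases from 3 to 8 after the main start of H2afz also read TTTGAA, but lie beyond its window and are not counted. CACGTG was in the window of H2afz and AAACACA in that of H3f3a, against 7.15% and 7.18% of all windows. TTTNGCGC was in none of the 9 and in 1.38% of all windows. The GC content of the windows was between 50.7% in Cenpa and 77.7% in H1fx, and its median over all windows was 52.7%. These are matches of letters and no measure of binding.

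Annotated 5′ ends on the other strand lay within 1000 bp of the main start of 5 genes, all of them antisense transcripts. H3f3aos, 218 bases before the main start of H3f3a, rose from 2.12 to 12.4 TPM (log2 fold change 2.49, SE 0.15, adjusted p = 3.43e-22 by edgeR) where H3f3a fell. Gm5577, 45 bases before that of H1fx, rose from 9.25 to 58.1 (2.63, SE 0.11, adjusted p = 7.77e-30), where H1fx did not pass the threshold. Gm49544, which starts 163 bases after that of H1f0, rose from 0.906 to 4.78 (2.48, SE 0.21, adjusted p = 4.63e-16). Gm43403 beside H2afz fell from 13.3 to 9.38 (−0.51, SE 0.12, adjusted p = 8.78e-05 by edgeR), and Gm48853 beside H2afx fell from 1.06 to 0.252 (−2.13, SE 0.36, adjusted p = 2.76e-07). CAGE tags carry the strand, and these tags were counted apart from those of the variant genes.

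The protein-coding gene whose levels were most like those of each variant gene was found by the root mean square difference in log2(TPM + 0.5) over the 6 libraries. It was Ska1, a spindle and kinetochore gene, for H2afz (0.09 on this scale), Ptbp3 for H2afv (0.16), Taf9 for H2afx (0.14) and Atp6v0b for H2afy (0.09). It was Efna4 for H2afy2 (0.11), Atp5j2 for H3f3a (0.08), Ogfod2 for H3f3b (0.09), Adam19 for H1f0 (0.09), Pigh for H1fx (0.10) and Ncoa1 for Cenpa (0.10). Taf9 was at 739 and 62.1 TPM beside 806 and 58.3 of H2afx, and Ncoa1 at 65.2 and 123 beside 68.8 and 118 of Cenpa.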

How the data were processed

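Capped 5′ ends of nuclear RNA were profiled by CAGE in 3 libraries of the R08 line (mESCs) and in 3 of oli-neu (mOPCs). The deposited values are counts, which the authors made by trimming the reads to short tags, aligning them to mm10 with bowtie, keeping unique alignments and counting tags by 5′ position and strand, without normalization. The submitters' processing notes name CASAVA 1.8 and BWA 0.5.9 instead. Positions whose first 21 bases occur in another annotated transcript held no tags just after the main start of H3f3b, but held tags at H2afz and H2afv, and how such tags were placed was not tested.

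Tags were summed within 500 bp of every annotated 5′ end of a gene (GENCODE M21) on its strand. Genes were compared with edgeR 4.0.16 (R 4.3.3), with TMM, filterByExpr, a robust quasi-likelihood fit and a threshold of 0.05 on adjusted p, and promoter shares with diffSpliceDGE. Levels (TPM) are tags per 1000000 tags of the library. TMM moved fold changes by −0.027 on the log2 scale against library totals. Shares and widths were compared by two-sided exact permutation tests over libraries. On simulated counts for 17839 genes, the gene test recovered 91% of changes of 1 and 99% of changes of 2 on the log2 scale. In this simulation 4.04% of calls were false. Only 100 genes were changed there by each amount, up and down alike, with 1 fixed dispersion. In the deposited data 91.1% of genes were called, so these rates may not hold for them. No molecular identifiers were used, so that tags may include PCR copies.

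The members and lists were chosen with earlier results of these data known. Named are all members, the gene of each deposition list with the largest called change in each direction, the gene most like each member, genes that share tags with a member and the nearest 5′ end on the other strand. A gene that this rule names is not reported here. Gm43584 and Gm26623 were named after their values were seen. Same-numbered libraries of the cell types did not deviate together (r = 0.011, 0.058 and 0.015), so the numbers were not taken as pairs. Alternatives were other scalings, filters, windows and 5′ ends, DESeq2 1.42.0, a replicate block and each library left out. Protein sequences and a genome sequence were not used here. Python 3.11.15, numpy 2.4.6, pandas 2.3.3 and matplotlib 3.10.9 were used.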

Additional observations from a re-analysis of the deposited data

Results flagged for a closer look

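Tags at the copy of the H3f3b start in Gm43584 lie outside the windows of every variant gene and are a signal in data that the levels given above do not use. The 3 positions of the copy held 285, 105 and 129 tags in the mESC libraries and 284, 430 and 699 tags in the mOPC libraries. No library of this series serves as a control for tags at this place.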

How the results depend on the processing

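The 9 called variant genes kept their direction and their call under all 17 alternatives, 153 values in all, with adjusted p between 0 and 0.00037. H1fx, not called, passed the threshold with scaling to the library total (log2 fold change 0.25), with that total without its top position (0.33), with windows of 100 bp (0.26) and with the replicate block (0.23). Without single libraries it was between 0.10 and 0.31, and passed without mESC replicate 3 or mOPC replicate 3 (0.30 and 0.31). With only tags in the annotated gene, which leave out its main start, it was −0.20 (adjusted p = 0.454 by edgeR). The replicate block changed no other call of a variant gene or its promoters. The called genes numbered 14937 to 20963 over the alternatives. With basic transcripts only, 1431 promoters were called for their share in place of 4101. With windows of 100 bp, the main H3f3b promoter passed the threshold for its share (log2 −0.29), and the upstream one moved from 2.00 to 5.29.

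With windows of 100 bp, the share of H2afy rose by 1.31 percentage points in place of 9.41, since the main start of H2afy2 lies 213 bases from its annotated 5′ end. That of H2afz then rose by 3.86 points, and that of H3f3a fell by 10.2 points, where with windows of 500 bp it fell by 14.8. With the tags of the copy, H3f3a fell by 23.4 points. Differences in width (mOPC minus mESC) by the 25th to 75th percentile were 14.7 bases for H2afz, −3.33 for H2afv, −1 for H2afx, −9.33 for H2afy, −8.67 for H2afy2 and 4.33 for H3f3a. Without positions of 1 tag they were 234 for H2afz, 424 for H3f3b and −2.67 for H2afy. The cause of the other changes was not tested. Low counts limit H2afy2 in mOPCs and H3f3b in mESCs.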

Other observations

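Counting tags inside the annotated gene, in place of windows around 5′ ends, lost most tags of the linker histone genes. Their main starts, as deposited, lie 1 base before the annotated gene, and the next base is A in both. Deposited positions lie 1 base before the usual first base, as given above. Moved by that 1 base, both main starts would fall on the first base of the annotated gene. H1f0 then had 233, 103 and 103 tags in mESCs and 473, 571 and 774 in mOPCs, which is 5.44% and 10.4% of the tags in its window. Its log2 fold change was 1.62 by this count and 0.80 by the window, with the same direction. H1fx had 50, 22 and 21 tags in mESCs and 24, 46 and 39 in mOPCs, 7.72% and 6.17% of its window. In H2afx, whose second start lies 4 bases before the annotated end, 42.3% and 52.6% of tags were inside the gene. For H2afy2, the annotated gene held 108% of the window count in mESCs and 145% in mOPCs, since it also holds tags far from the 5′ end.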
